A study of Mus musculus with 150 samples.

Results

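A set of 9 genes whose liver mRNA level was reported to be set mainly by the strain of the mouse were followed across the BXD family: Eno1b, Pttg1, Trim12a, Tceanc2, Amn, Arhgef10, Ctse, Ildr2 and Apol7d. They were chosen by name from the measured strain levels, and all 9 were among the 13414 genes with a mean of at least 0.5 FPKM (fragments counted on a transcript, scaled to its length and to the depth of the library), out of 25394 gene symbols in the table. Strain levels are therefore given below as a description without a test, and only diet and age, which did not choose the genes, are tested. The BXD strains are recombinant inbred lines bred from the inbred mouse strains C57BL/6J and DBA/2J, so that at any place in the genome a strain carries, in 2 copies, the DNA of 1 parent or the other. The data are polyA-selected RNA of whole perfused livers of female mice, taken at 157 to 764 days of age from mice fed chow (labelled CD) or a high-fat diet (labelled HF). The 140 mice analysed were 124 mice of 36 BXD strains, 3 C57BL/6J mice (1 on CD and 2 on HF, 182 to 544 days old), 3 DBA/2J mice (2 on CD and 1 on HF, 212 to 764 days), 6 B6D2F1 hybrids (3 on each diet, 216 to 640 days) and 4 D2B6F1 hybrids (2 on each diet, 210 to 545 days). B6D2F1 and D2B6F1 are the reciprocal first-generation crosses of the parents. In all, 71 mice ate CD and 69 ate HF, with 1 to 6 mice per strain, so a strain mean often rests on few animals.

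In a recombinant inbred family, a gene whose level depends on DNA close to it takes 1 of 2 levels, that of either parent, and a first-generation hybrid, which carries 1 copy from each parent, then lies between them. Genes that lie near each other are inherited together and tend to share the same parent's DNA in the same strains. The 9 genes have unrelated roles. Pttg1 encodes securin, which holds separase inactive until chromosomes part in mitosis, and Tceanc2 encodes a protein with domains of the transcription elongation factor S family. Eno1b is an enolase gene, a relative of Eno1, whose enzyme forms phosphoenolpyruvate in glycolysis. Trim12a belongs to the TRIM family of ubiquitin ligases and is related to Trim5, a restriction factor of retroviruses. Amn, amnionless, forms with cubilin the cubam receptor that takes up cobalamin bound to intrinsic factor. Ildr2 encodes a membrane protein of the angulin family, Arhgef10 a guanine nucleotide exchange factor, and Ctse the aspartic protease cathepsin E. Apol7d carries the name of the apolipoprotein L family.

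The RefSeq promoter table for GRCm38.p6 held a start site for 5 of the 9 genes. The 250 bases before that start are shown for Trim12a, Tceanc2 and Amn. They are the stretch next to that start in the reference, which is the C57BL/6J genome. The DBA/2J sequence was not analysed here. The window of Tceanc2 lies inside another deposited transcript of that gene (chr4:107139533-107179103), so it is not upstream of all its transcripts. Capitals mark, on either strand, the letters CCAAT, which make up the CCAAT box, and the letters GGGCGG, which make up the GC box.
Trim12a (chr7:104315496-104315745, minus strand): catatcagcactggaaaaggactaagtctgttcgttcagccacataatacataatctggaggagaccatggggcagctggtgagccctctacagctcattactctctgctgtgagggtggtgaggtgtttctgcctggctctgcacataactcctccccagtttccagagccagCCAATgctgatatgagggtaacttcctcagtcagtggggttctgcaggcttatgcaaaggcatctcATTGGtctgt
Tceanc2 (chr4:107178367-107178616, minus strand): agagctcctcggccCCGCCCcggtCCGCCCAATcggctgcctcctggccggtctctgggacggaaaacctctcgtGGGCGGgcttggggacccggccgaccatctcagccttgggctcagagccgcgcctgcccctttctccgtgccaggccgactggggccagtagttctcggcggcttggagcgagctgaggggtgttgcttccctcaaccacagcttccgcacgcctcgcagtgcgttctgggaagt
Amn (chr12:111270846-111271095, plus strand): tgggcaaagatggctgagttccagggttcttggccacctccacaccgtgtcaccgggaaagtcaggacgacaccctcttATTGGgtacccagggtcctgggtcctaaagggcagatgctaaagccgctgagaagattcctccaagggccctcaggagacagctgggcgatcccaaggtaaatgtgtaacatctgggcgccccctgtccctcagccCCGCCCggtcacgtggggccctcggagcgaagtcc
Trim12a held 2 CCAAT boxes and no GC box in this window, Tceanc2 held 1 CCAAT box that overlapped 1 of its 3 GC boxes, and Amn held 1 of each. Pttg1 and Ildr2, whose windows are not shown, held no CCAAT box. Ildr2 held 3 GC boxes and Pttg1 none. Of the 32851 promoters of the same length in the table, 33.9% held a CCAAT box and 32.7% a GC box. The letters TATAAA on either strand, found in 12.4%, were in none of the 5 windows.

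The 9 genes lie on 7 chromosomes of the build GRCm38. The transcripts used were Pttg1 (chr11:43421031-43426227, minus strand), Tceanc2 (chr4:107139577-107178282, minus strand), Eno1b (chr18:48045335-48048378, plus strand) and Trim12a (chr7:104299897-104315455, minus strand). The others were Amn (chr12:111271111-111276426), Arhgef10 (chr8:14911738-15001085), Ctse (chr1:131638494-131675503), Ildr2 (chr1:166254193-166311270) and Apol7d (chr1:71652837-71657457), each on the plus strand. The deposited annotation gives Apol7d as an antisense transcript and the other 8 as protein coding.

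Sequencing depth was 18330270 to 35274551 input reads per library, with a uniquely mapped share of 79.8 to 90.68%. A level of 1 FPKM stood for 10.6 to 20.4 reads of Pttg1, the shortest of these transcripts, and for 89.2 to 171 reads of Arhgef10, the longest. Hepatocyte markers were high in every library (summed level of 11 markers 36280 to 87780 FPKM). Of 8 kidney tubule markers, 7 were below 0.5 FPKM in all, Lrp2 and Cubn among them. Exocrine pancreas markers varied widely, with a summed level of 10 markers from 6.27 over a median of 42.3 to 6008 FPKM. What these pancreas markers contributed to the levels of the 9 genes was not tested. In 11 libraries, which stood apart, the median correlation with all others was 0.825 to 0.917, and that of every other library was at least 0.929. They were 8 BXD mice, 2 B6D2F1 hybrids and 1 DBA/2J mouse, 8 on CD and 3 on HF, aged 353 to 756 days. Their summed leukocyte markers had a median of 560.2 FPKM, against 139 over all libraries. Some libraries of 1 strain were nearly alike. The median chi-square of their read counts over genes, 0.455 for counting noise alone, had a median of 7.65 over the 204 pairs of mice of 1 strain. It was under 2, a limit chosen after the values were seen, in 10 pairs of 17 libraries from 7 strains (B6D2F1 among them), 4 of them pairs of mice on different diets. The lowest was 0.705, for BXD34 replicates 1 and 4, labelled with different diets and ages 357 days apart. No pair was at or below counting noise, so all were kept as separate mice; whether they are was not tested. With 1 library kept of each such group (131 mice), no diet or age call among the 9 genes changed; the call nearest the threshold was the diet call of Pttg1 (-0.17 on the log2 scale, limma adjusted p = 0.0422).

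In 7 of the 9 genes the BXD strains fell into 2 sets with a wide space between them. Strain took up 97.3% of the variance in log2(FPKM + 1) left after diet and age for Eno1b, 96.8% for Pttg1 and for Trim12a, 96.1% for Tceanc2 and 95.4% for Amn. The share was 94.1% for Ctse and 93.7% for Arhgef10. These 7 ranked between place 2 and place 23 of the 13414 genes, whose median share was 40.6%. Ildr2 had a share of 80.4% and ranked at place 178. Apol7d had a share of 41.7%, close to the median gene, and ranked at place 5813, so the description of a level set by strain did not hold for it. When the 36 strain means were divided at the point that left the least spread inside each set, the distance between the nearest strains of the 2 sets was over 0.5 on the log2 scale for these 7 genes, a limit chosen after the values were seen. Arhgef10 was the nearest inside it (0.79) and Apol7d the nearest outside (0.33). Such a distance was found for 1.96% of all genes, and since the genes were chosen for their strain levels, nothing is read from that comparison.

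**Figure D1:**
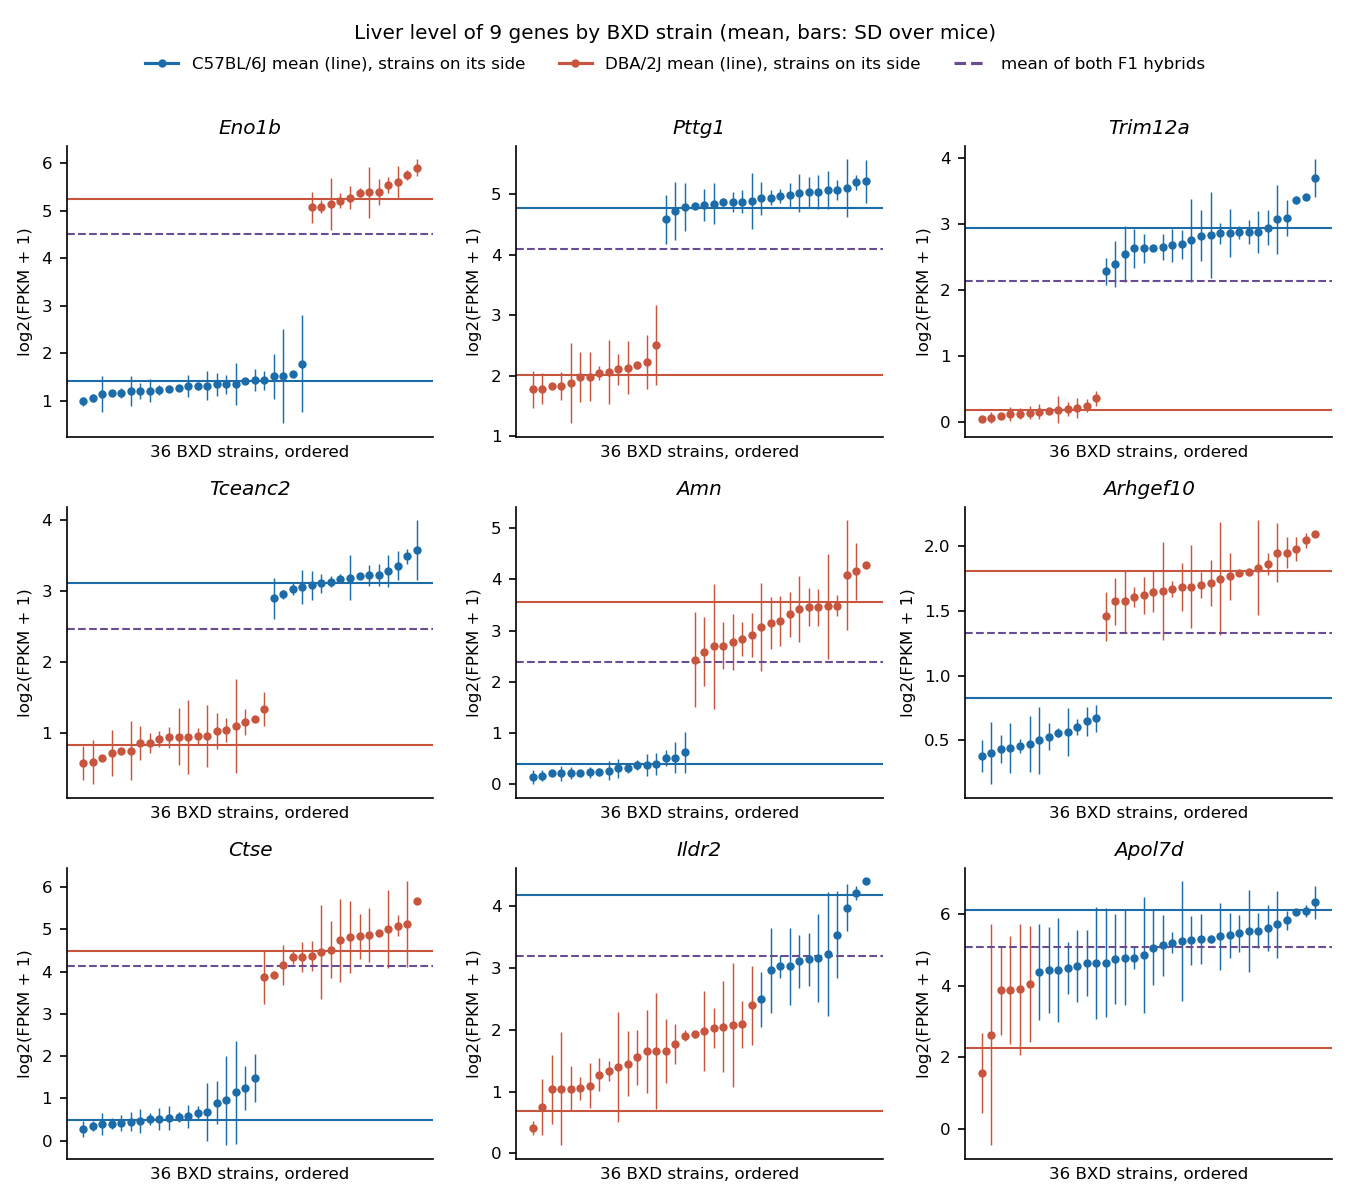
Mean log2(FPKM + 1) of each of the 36 BXD strains, ordered from low to high for each gene (points, bars: SD over mice; a strain with 1 mouse has no bar). Solid lines are the means of C57BL/6J (blue) and DBA/2J (red), the dashed line is the mean of the 10 F1 hybrids, and colours give the parent whose side a strain was on; 7 genes show an empty space between the sets, while Ildr2 and Apol7d run from low to high without one.

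Pttg1 and Tceanc2 were high with C57BL/6J. For Pttg1, 14 strains were low and 22 high, with mean levels of 3.21 ± 0.701 FPKM (SD, n = 14 strains) and 30.3 ± 3.26 FPKM (n = 22), a 9.43-fold difference. The 45 mice of the low strains ran from 1.65 over a median of 2.99 to 8.54 FPKM, and the 79 mice of the high strains from 17.1 over 29.97 to 49.3 FPKM. No mouse of a high strain came down to the level of a low strain. For Tceanc2, 20 strains were low, at 0.935 ± 0.281 FPKM, and 16 were high, at 8.21 ± 1.23 FPKM, an 8.78-fold difference. Its low mice ran from 0.137 over 0.831 to 3.26 FPKM and its high mice from 4.56 over 7.95 to 14.9 FPKM, again without overlap.

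Trim12a had the largest fold difference of the 9 genes and was also high with C57BL/6J. Its 13 low strains averaged 0.121 ± 0.0656 FPKM and its 23 high strains 6.51 ± 1.83 FPKM, 53.8 times as much. The 39 mice of the low strains ran from 0 over 0.103 to 0.354 FPKM and the 85 mice of the high strains from 2.93 over 5.91 to 15.2 FPKM. In 4 low mice, 1 each of BXD61, BXD62, BXD66 and BXD99, no read was counted, which at their depth allows a level of up to 0.0968 to 0.11 FPKM (3 reads). At 23.2 to 44.6 reads per FPKM, the low level of Trim12a rested on a few reads per mouse, so the fold is less certain than the separation.

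Eno1b, Amn, Arhgef10 and Ctse were high with DBA/2J. Eno1b had the widest space between the sets, 3.29 on the log2 scale. Its 24 low strains averaged 1.58 ± 0.496 FPKM and its 12 high strains 42.4 ± 8.17 FPKM, a 26.7-fold difference. The 83 low mice ran from 0.661 over 1.39 to 10.4 FPKM and the 41 high mice from 25.2 over 41.5 to 65.1 FPKM. The sets did not overlap. The highest low mouse, BXD100 replicate 1, stood alone, since the other 4 BXD100 mice had 1.02 to 2.59 FPKM.

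Amn had 17 low strains at 0.254 ± 0.132 FPKM and 19 high strains at 9.74 ± 4.26 FPKM, a 38.4-fold difference. Its 60 low mice ran from 0.0244 over 0.215 to 1.21 FPKM and its 64 high mice from 1.95 over 8.32 to 27.7 FPKM. The high strains were widely spread among themselves, from 5.18 to 18.4 FPKM. The genes of cubilin, the partner of amnionless, and Lrp2 were on the list of kidney tubule markers, and both stayed below 0.5 FPKM in every library.

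Arhgef10 was the gene with the lowest level and the smallest fold of the 7. Its 13 low strains averaged 0.435 ± 0.0912 FPKM and its 23 high strains 2.43 ± 0.388 FPKM, a 5.59-fold difference. The 43 low mice ran from 0.14 over 0.434 to 0.715 FPKM and the 81 high mice from 1.39 over 2.36 to 3.48 FPKM, without overlap. C57BL/6J itself lay at 0.783 ± 0.207 FPKM (SD, n = 3), above the mean of each of the 13 low strains, the highest of which was 0.595 FPKM.

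Ctse had the next widest space, 2.39 on the log2 scale, with 19 low strains at 0.718 ± 0.552 FPKM and 17 high strains at 27.4 ± 9.56 FPKM, a 38.1-fold difference. The 63 low mice ran from 0.0768 over 0.434 to 6.1 FPKM and the 61 high mice from 5.74 over 23.7 to 82.0 FPKM. Here the sets overlapped by single mice: the highest low mouse was again BXD100 replicate 1, at 6.1 FPKM, where its 4 strain mates had 0.215 to 0.566 FPKM. This mouse, on CD and 567 days old, was thus high for its strain in 2 genes that are high with DBA/2J. In Pttg1 and Tceanc2, high with C57BL/6J, it was the lowest of the 5, with 23.3 FPKM against 23.7 to 34.5 FPKM and 6.11 FPKM against 6.48 to 9.07 FPKM. In Trim12a, also high with C57BL/6J, it was not the lowest, with 4.83 FPKM against 4.55 to 9.24 FPKM. Its library did not stand apart, with a median correlation of 0.966. Across the 7 split genes, the groups of mice did not overlap in 6, which was so for 0.537% of all genes. In Ildr2 and Apol7d the groups overlapped. Since the genes were chosen for their strain levels, nothing is read from that share.

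Ildr2 and Apol7d ran from low to high strains with no empty space. For Ildr2 the best division put 24 strains low and 12 high, but the nearest strains, BXD100 and BXD40, were 0.10 apart on the log2 scale, against a spread between mice of a strain of 0.62. Of 124 BXD mice, 12 lay on the other side of the division from their strain. The parents were far apart, at 17.2 ± 2.69 FPKM in C57BL/6J and 0.658 ± 0.518 FPKM in DBA/2J (SD, n = 3 each), and the BXD strain means spread from 0.331 to 20.1 FPKM. Apol7d put 27 of 124 mice on the other side, and its spread between mice of a strain was 1.22 on the log2 scale. Over all 140 mice Apol7d ran from 0.546 over 36.3 to 116 FPKM.

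The level of both genes was lower in the libraries that stood apart. Ildr2 had a median of 0.615 FPKM in those 11 and 3.35 FPKM in the other 129, and Apol7d 3.85 and 37.4 FPKM. What the standing of those libraries contributed to the strain levels of these genes was not tested, apart from leaving them out: without them 24 BXD mice still lay on the other side for Apol7d and 11 for Ildr2.

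In the parents, all 9 genes differed without overlap between the 3 C57BL/6J and the 3 DBA/2J mice, which was so for 38.7% of all genes. The mean of the 10 F1 hybrids lay between the parents' means for all 9, as it did for 65.3% of all genes. Parents and hybrids are among the strains whose levels chose the genes, so nothing is read from these shares. Pttg1 was at 24.1, 28.0 and 27.5 FPKM in the C57BL/6J mice and at 2.69, 4.1 and 2.54 FPKM in the DBA/2J mice. The F1 hybrids had 13.2 to 18.9 FPKM, each of them between the parents. Trim12a was at 7.13, 6.84 and 6.09 FPKM in C57BL/6J and at 0.224, 0.13 and 0.0414 FPKM in DBA/2J. Its F1 hybrids, at 2.25 to 4.21 FPKM, averaged 3.42 ± 0.621 FPKM (SD, n = 10), next to the midpoint of the parents of 3.41 FPKM. Tceanc2 was at 7.78, 8.0 and 7.08 FPKM against 0.743, 1.37 and 0.376 FPKM, with 3.8 to 6.18 FPKM in the F1.

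Among the genes high with DBA/2J, the F1 mice were also intermediate in Amn and Arhgef10. Amn was at 0.638, 0.182 and 0.174 FPKM in C57BL/6J and at 14.8, 10.1 and 8.33 FPKM in DBA/2J. Its F1 mice had 2.11 to 7.86 FPKM. Arhgef10 was at 0.991, 0.78 and 0.577 FPKM against 2.21, 3.28 and 2.16 FPKM. The 6 B6D2F1 mice had 1.43 to 2.06 FPKM of Arhgef10 and the 4 D2B6F1 mice 1.07 to 1.36 FPKM. The highest B6D2F1 values, 2.015 and 2.055 FPKM, came from libraries that stood apart. How many of all genes separate the reciprocal hybrids was not counted, so nothing is read from these ranges. Eno1b was at 1.99, 1.85 and 1.2 FPKM in C57BL/6J and at 37.9, 20.8 and 62.6 FPKM in DBA/2J. With 16.3 to 30.8 FPKM, 5 of its 10 F1 mice lay within the wide range of DBA/2J.

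Expressed as a position, where 0 is the C57BL/6J mean and 1 the DBA/2J mean, the F1 mean of FPKM lay at 0.498 for Trim12a, 0.53 for Eno1b, 0.449 for Tceanc2, 0.438 for Pttg1, 0.427 for Arhgef10 and 0.388 for Amn. The median over the 7 split genes was 0.449 on FPKM and 0.51 on log2(FPKM + 1). The log2 median joins genes high with C57BL/6J, at 0.25 to 0.29, and genes high with DBA/2J, at 0.51 to 0.91, so it describes neither. On the log2 scale each F1 mean was shifted toward the higher parent, since the same FPKM midpoint lies higher on that scale: the position was 0.81 for Eno1b and 0.25 for Pttg1. Ctse lay nearest to a parent, at 0.848 on FPKM, with F1 mice from 4.0 to 32.1 FPKM. For Ildr2 the position was 0.437 and for Apol7d 0.335, and without the libraries that stood apart 0.309 and 0.169. Eno1b then lay at 0.379.

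The low Ctse values in the F1 came from 2 mice. B6D2F1 replicates 1 and 2, both on CD and 640 and 552 days old, had 4.9 and 4.0 FPKM of Ctse, and the other 4 B6D2F1 mice 14.9 to 32.1 FPKM. They also had 1.62 and 1.31 FPKM of Ildr2, against 9.74 to 15.4 FPKM, and 3.85 and 3.57 FPKM of Apol7d, against 52.0 to 92.4 FPKM. These 2 libraries were also nearly alike, with a median chi-square of 1.32, the fifth lowest of the 204 pairs. Both were among those that stood apart, and their summed leukocyte markers were 4606 and 4828 FPKM, against 94.0 to 165 FPKM in the other 4, and their erythroid markers 5805 and 5994 FPKM, against 197 to 626 FPKM. Their hepatocyte markers, at 70980 and 71740 FPKM, were not low, and in whole tissue fewer cells of a type cannot be told apart from less RNA per cell. Without the libraries that stood apart the position of Ctse was 1.43 on FPKM, above DBA/2J; 1 DBA/2J mouse was left out with them.

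**Figure D2:**
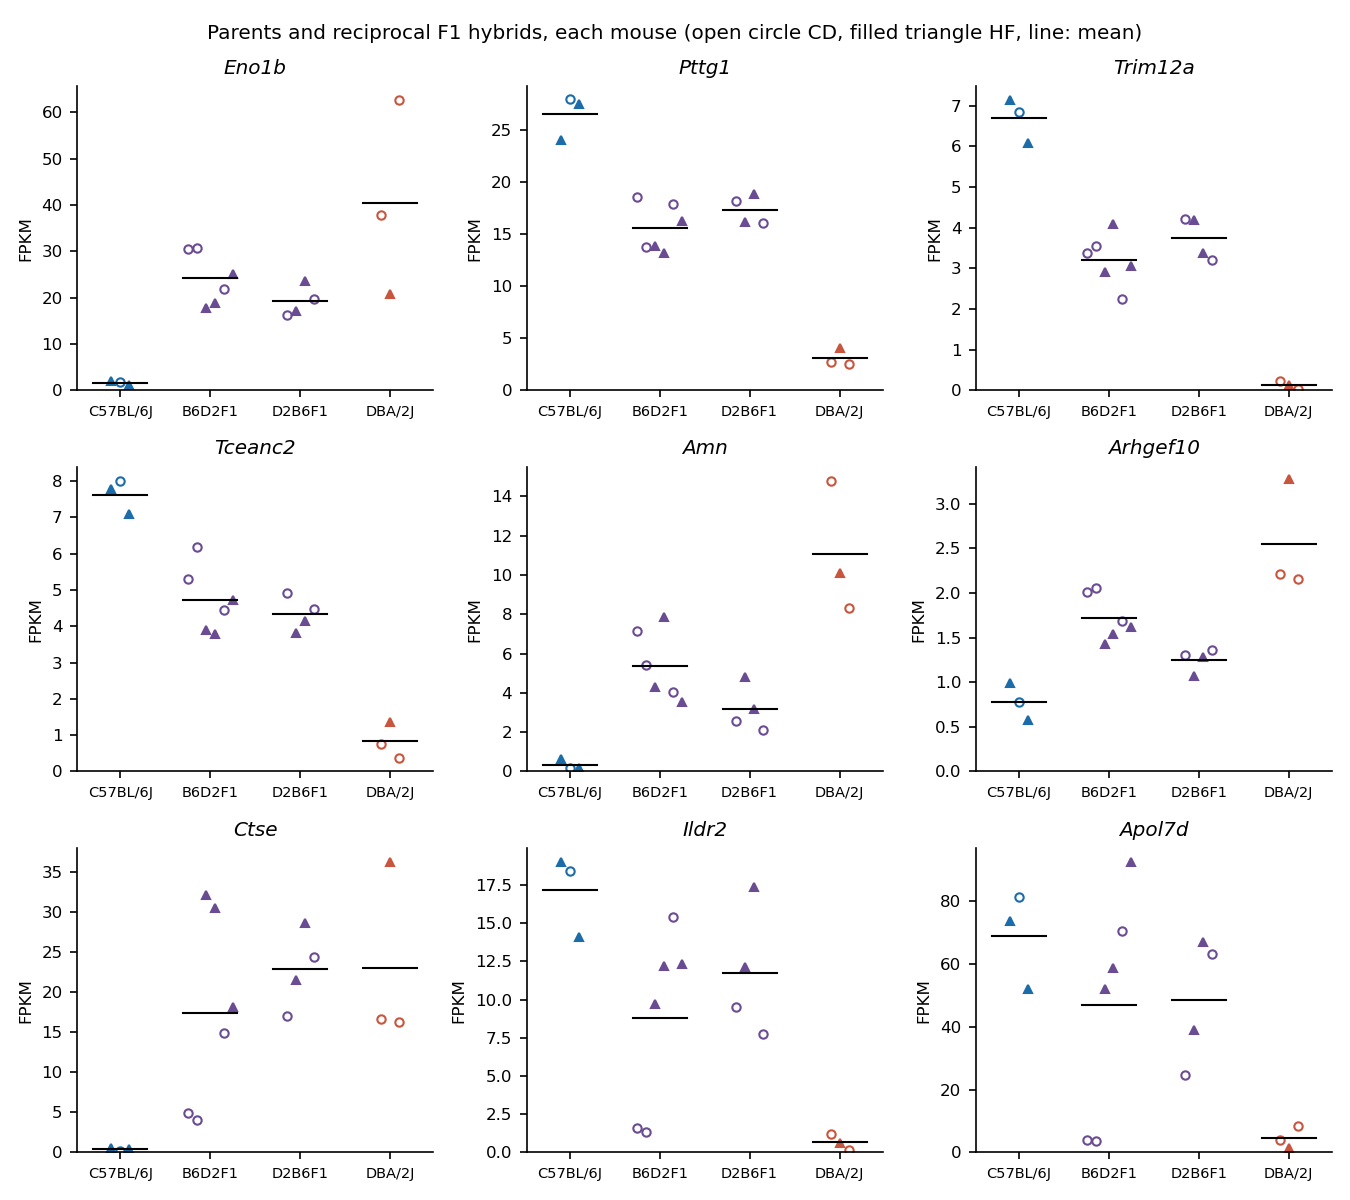
FPKM of each mouse of the parents C57BL/6J (blue, n = 3) and DBA/2J (red, n = 3) and of the reciprocal hybrids B6D2F1 (n = 6) and D2B6F1 (n = 4, both purple); open circles are CD, filled triangles HF and lines the means. The hybrids sit between the parents for Pttg1, Trim12a, Tceanc2, Amn and Arhgef10, and 2 B6D2F1 mice are far below the other hybrids for Ctse, Ildr2 and Apol7d.

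The 7 split genes divided the BXD strains in different ways. A strain was on the side of C57BL/6J for a given gene in 24 of 36 strains for Eno1b, 23 for Trim12a, 22 for Pttg1, 19 for Ctse, 17 for Amn, 16 for Tceanc2 and 13 for Arhgef10. For the 21 pairs of these genes, the share of strains on the same parent's side for both ran from 30.6% (Pttg1 and Arhgef10, 11 of 36 strains) to 63.9% (Eno1b and Trim12a, 23 of 36), with a median of 50%. By the annotation, no pair of the 7 lies on 1 chromosome. Of the 20 genes most like Eno1b, however, 13 lay on chromosome 4, which holds Tceanc2. Eno1b and Tceanc2 were on the same parent's side in 20 of 36 strains (55.6%). Whether these 2 patterns are linked was not tested. The strains showed 29 different combinations over the 7 genes. BXD32 was on the DBA/2J side for all 7, and BXD95 on the C57BL/6J side for all but Arhgef10.

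Strains that share a number in their names were compared as well. BXD65 and BXD65b were on the same side for 7 of the 7 genes, and so were BXD73 and BXD73b, whereas any pair of BXD strains was on the same side for a median of 4. BXD48 and BXD48a were on the same side for 5 and differed in Tceanc2 and Ctse. Tceanc2 was at 0.831 ± 0.291 FPKM in BXD48 (SD, n = 4) and at 7.12 ± 0.48 FPKM in BXD48a (n = 2). Ctse was at 19.3 ± 2.38 FPKM in BXD48 and at 0.469 ± 0.117 FPKM in BXD48a.

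**Figure D3:**
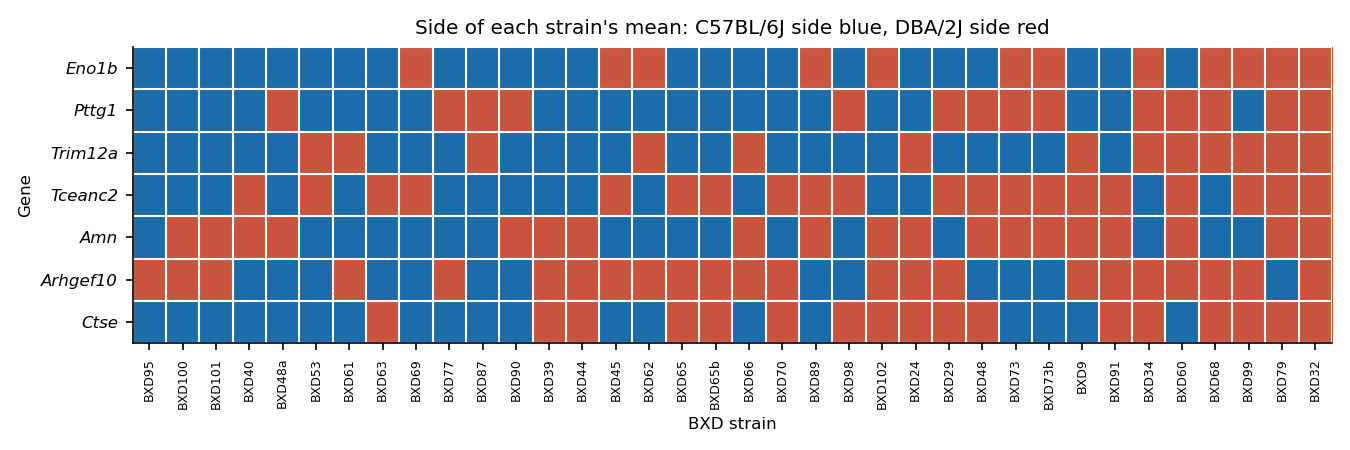
Side of the strain mean for the 7 split genes (rows) in each of the 36 BXD strains (columns, ordered by how many of the 7 genes were on the C57BL/6J side): blue is the C57BL/6J side, red the DBA/2J side. Rows differ from each other, with 29 different columns, and the columns of BXD65 and BXD65b and of BXD73 and BXD73b are the same.

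The sides were also compared for 7 columns of the table whose values repeat another column exactly under a different label and were left out. For 6 of the libraries concerned, the kept label could be compared with the dropped one. Each of the 6 was on the side of its kept strain, as given by the other mice of that strain, for all 7 genes. It was on the side of the dropped strain for 2 to 6 of them. These genes were chosen from strain levels in the same data, so this describes the sides and does not test the labels.

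For Trim12a, Tceanc2, Ctse and Amn, many of the genes with the most similar strain means lay near the gene itself. The 20 genes most correlated with Trim12a over the 36 strain means all lay within 10 Mb of it on chromosome 7, which holds 7.63% of the genes tested. The most alike named genes were Trim30d, 0.17 Mb away (r = 0.98), Trim5, 0.0345 Mb away (r = 0.94), and Folr2, a folate receptor gene 2.46 Mb away (r = 0.92). For Tceanc2, 9 of 20 lay within 10 Mb, led by Fam151a (0.406 Mb, r = 0.88) and the acyl-CoA thioesterase gene Acot11 (0.392 Mb, r = 0.88), with Ttc39a in the opposite direction (r = -0.82). Strain means over neighbouring genes share the same 36 strains and libraries, so these correlations are a description.

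For Ctse, 12 of the 20 most alike genes lay within 10 Mb, led by Pm20d1, a peptidase that makes N-acyl amino acids (0.159 Mb, r = 0.78), Ren1, renin (1.71 Mb, r = 0.75), and Ddx59 (4.78 Mb, r = 0.70). Ildr2 had 10 of 20 within 10 Mb, although its strain means were not split in 2. The gene most like Ildr2 had a provisional symbol, 5330438I03Rik (absolute r = 0.99). With such symbols passed over, the most alike were Sft2d2 (1.08 Mb, r = 0.75), Pogk (0.138 Mb, r = 0.71) and Hyal3 on chromosome 9 (r = 0.70). For Amn it was 8 of 20, and the most alike gene was A530016L24Rik (absolute r = 0.93), also a provisional symbol. The next named were the small RNA genes Snora28 (r = -0.63) and Mir1247 (r = 0.62) on the same chromosome and Scarb2 on chromosome 5 (r = 0.56). Pttg1 had 13 of 20 on its chromosome and 3 within 10 Mb, with Ublcp1 (1.03 Mb, r = 0.72), Thg1l (2.53 Mb, r = -0.70) and AL662809.1 (15.5 Mb, r = 0.63) as the most alike. Arhgef10 had few like genes near it: 1 of 20 lay on chromosome 8, Nek3 at 7.22 Mb (r = 0.55), and the others named were Lefty1 on chromosome 1 (r = -0.64) and Prmt6 on chromosome 3 (r = 0.53).

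Eno1b was different. Of the 20 genes most like it, 0 lay on chromosome 18, where it is annotated, and 13 lay on chromosome 4, which holds 6.25% of the genes tested. Of these, 10 were within 5 Mb of Eno1, the enolase gene of chromosome 4 (chr4:150236952-150248879). Fbxo44, an F-box protein gene 2.08 Mb from Eno1, had r = -0.80, and Sfi1 on chromosome 11 had r = 0.75. The transcripts of Eno1b and Eno1 in GENCODE M21 align over 1652 bases and differ at 9 of them (99.5% identical), so reads of the 2 genes can hardly be told apart, and how reads that fit both were counted is not given in the sources used here.

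Eno1 moved against Eno1b over the strains (r = -0.75). In the 12 strains with high Eno1b, Eno1 was at 148 ± 23.1 FPKM (SD over strains, range 119 to 198.5), and in the 24 strains with low Eno1b it was at 238 ± 43.9 FPKM (139 to 329). The ranges overlapped. C57BL/6J had 290.0 ± 76.2 FPKM of Eno1 (n = 3, range 236 to 377) and DBA/2J 117 ± 46.9 FPKM (78.7 to 169), with the B6D2F1 at 203.5 ± 23 FPKM (n = 6) and the D2B6F1 at 199.9 ± 13.8 FPKM (n = 4). The sum of both genes was 191 ± 31.1 FPKM in the strains with high Eno1b and 239 ± 44 FPKM in the others. Whether the Eno1b values hold reads of Eno1 was not tested, and the level of Eno1b is therefore uncertain, while its division of the strains is a property of the deposited values.

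Trim12a has close copies as well, next to it on chromosome 7. Its transcript aligns with that of Trim12c over 859 bases at 96.4% identity and with that of Trim5 over 795 bases at 96.5%. Trim5 followed Trim12a over the strains, with 1.48 FPKM in C57BL/6J and 0.215 FPKM in DBA/2J, but Trim12c did not (r = -0.35; 4.46 and 5.97 FPKM). How reads were shared between these genes is not given in the sources used here, so the levels of each are uncertain.

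The genes most like Apol7d lay on other chromosomes: Dag1, dystroglycan, on chromosome 9 (r = 0.96), Kif13a, a kinesin gene, on chromosome 13 (r = 0.95), and Masp1, a protease gene of the complement system, on chromosome 16 (r = 0.95). Of its 20 most alike genes, 1 lay on chromosome 1. The Apol7d transcript overlaps Fn1, the fibronectin gene on the opposite strand (chr1:71585523-71653172), by 336 bases, and its level followed that of Fn1 over the strains (r = 0.91). Fn1 averaged 244 FPKM over all mice, 379.8 ± 77.1 FPKM in C57BL/6J and 88.7 ± 59.5 FPKM in DBA/2J (n = 3 each). Without a stated use of strand, reads of Apol7d and Fn1 in the shared bases cannot be told apart. Fn1, Dag1, Kif13a and Masp1 were, like Apol7d, lower in the 11 libraries that stood apart, with medians of 75.9, 6.34, 0.975 and 11.3 FPKM against 263, 22.7, 2.63 and 28.7 FPKM in the others; the part of those libraries in these correlations was not tested.

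**Figure D4:**
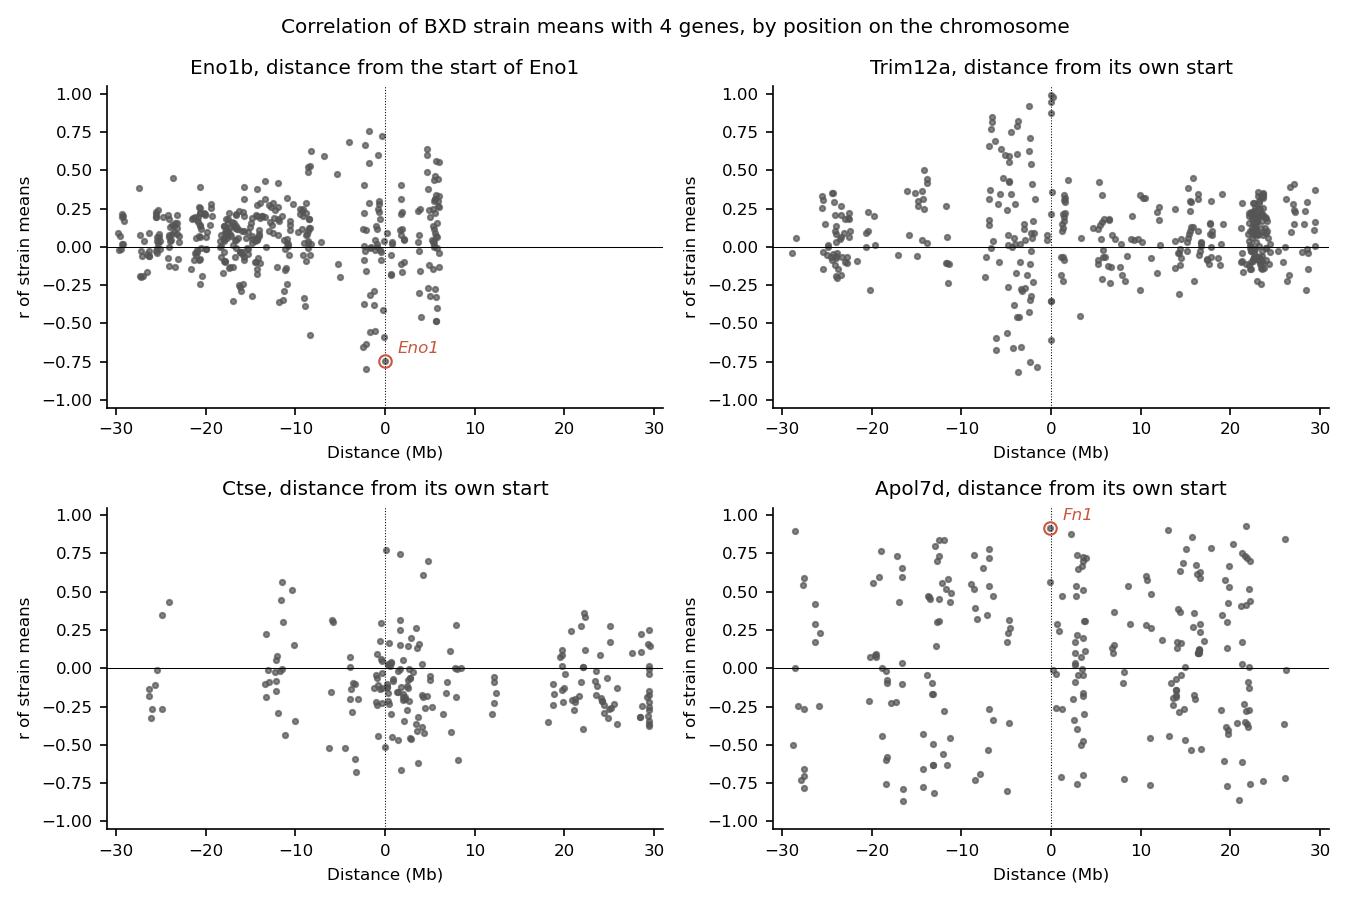
Pearson correlation of BXD strain means (36 strains) of each tested gene with Eno1b, Trim12a, Ctse and Apol7d, against its distance in Mb from the start of Eno1 (first panel) or of the gene itself (other panels); circles mark Eno1 (r = -0.75) and Fn1 (r = 0.91). High correlations gather within 10 Mb of Trim12a, of Ctse and, for Eno1b, of Eno1, but are spread over all distances for Apol7d.

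Diet was tested in a fit over all genes, with strain and age as terms. Of the 9 genes, 3 changed with diet: Ctse and Ildr2 were higher on HF and Pttg1 was lower. Of all genes tested, 10.1% passed this test (adjusted p under 0.05), 4.64% higher and 5.49% lower on HF. The median difference over the 9 genes was 0.08 on the log2 scale, and over all genes 0.00.

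Ctse, the protease gene, was higher on HF. In the strains of the high set, the 31 CD mice ran from 5.74 over 19.1 to 54.1 FPKM and the 30 HF mice from 14.5 over 29.9 to 82.0 FPKM. Their means were 21.4 ± 10.8 and 34.2 ± 15.7 FPKM, so the ranges overlapped but HF mice reached higher. In the low set the means were 0.725 ± 1.16 FPKM (n = 32) and 0.743 ± 0.889 FPKM (n = 31); whether the 2 sets differed in their response was not tested. The fitted difference over all strains was 0.42 (SE 0.10, log2 scale, adjusted p = 0.00367), with a higher mean on HF in 26 of the 35 strains that had both diets.

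The summed level of 9 stomach and intestine markers also differed with diet, with medians of 44.8 FPKM on CD (5.31 to 115) and 78.9 FPKM on HF (33.3 to 198). Only 2 of the 9 had a mean of at least 0.5 FPKM, so the sum does not stand for the whole list. Muc5ac, Gkn1, Gkn2 and Lct were below 0.5 FPKM in every library. The part of these markers in the difference of Ctse was not tested. Of the 11 libraries that stood apart, 8 were on CD, and without those 11 the difference of Ctse was 0.34 (adjusted p = 0.0147).

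Ildr2 ran from 0.132 over 2.42 to 19.2 FPKM in the 71 CD mice and from 0.0851 over 3.6 to 20.7 FPKM in the 69 HF mice. The ranges were nearly the same, and the shift showed within strains: the mean was higher on HF in 26 of 35. The fitted difference was 0.42 (SE 0.10, adjusted p = 0.00272), and 0.32 (adjusted p = 0.00922) without the libraries that stood apart.

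Pttg1 was lower on HF in both sets of strains. The high strains averaged 32.6 ± 6.72 FPKM on CD (n = 39) and 28.8 ± 5.01 FPKM on HF (n = 40), and the low strains 3.42 ± 1.04 FPKM (n = 24) and 2.99 ± 1.46 FPKM (n = 21). The fitted difference was -0.16 (SE 0.05, adjusted p = 0.034), with a lower mean on HF in 27 of 35 strains. It did not pass the limma test with collection session as a term (-0.16, adjusted p = 0.109) or with sequencing flow cell as a term (-0.14, adjusted p = 0.0616). The session was read from the case identifier, and that reading is an assumption.

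The other 6 genes did not pass the diet test. Their differences were 0.06 for Eno1b, 0.08 for Trim12a, -0.10 for Tceanc2, 0.12 for Amn, 0.03 for Arhgef10 and 0.38 for Apol7d, with adjusted p from 0.187 to 0.661. The difference of Apol7d was near that of Ctse but its SE was 0.21. Whether the diet difference depended on strain was tested in the 35 strains with both diets (131 mice). None of the 9 genes passed; the nearest were Apol7d (adjusted p = 0.0937) and Arhgef10 (adjusted p = 0.17). Of all genes, 1 of 13414 passed (0.00745%), and 2961 had an unadjusted p under 0.05. The count over all genes varied between 0 and 379 under other settings, but none of the 9 passed in any setting in which it was tested.

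With age, Amn rose. It was the only 1 of the 9 genes to change with age, where 23.7% of all genes did, 14.2% upward and 9.45% downward. That count of 3175 genes fell to 1374 without the libraries that stood apart and to 1071 with collection session as a term. In the strains of its high set, the 26 mice of 157 to 261 days ran from 2.54 over 5.37 to 11.5 FPKM and the 21 mice of 460 to 630 days from 1.95 over 11.7 to 18.4 FPKM, with means of 6.29 ± 2.56 and 11.4 ± 4.11 FPKM. In the low set the younger 20 mice averaged 0.159 ± 0.0953 FPKM and the older 29 mice 0.309 ± 0.251 FPKM. The slope was 0.47 per year on the log2 scale (SE 0.07, adjusted p = 2.72e-06), and the older mean was higher in 25 of 28 strains that had both ages. With collection session as a term the slope was 0.35 (SE 0.14, adjusted p = 0.0886), so it did not pass.

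Markers of other cell types differed between these ages too: summed leukocyte markers had a median of 113.5 FPKM in the 52 younger mice (36.4 to 646) and 162 FPKM in the 58 older ones (46.2 to 4828), and erythroid markers 225 and 393 FPKM. Kidney tubule markers had medians of 3.55 and 3.51 FPKM. Only 1 of the 8 had a mean of at least 0.5 FPKM, so this sum does not stand for the whole list. The part of the leukocyte and erythroid markers in the slope of Amn was not tested; without the libraries that stood apart the slope was 0.44 (adjusted p = 1.12e-05). Trim12a had the next largest upward slope, 0.13 per year (SE 0.05), which did not pass the test (adjusted p = 0.0586). The slopes of the other 7 ran from -0.21 for Apol7d to 0.07 for Eno1b, with adjusted p from 0.383 to 0.905, and the median over the 9 genes was 0.02, against 0.01 over all genes. Ctse had a slope of -0.12 (SE 0.12, adjusted p = 0.505), which became -0.59 (adjusted p = 0.0377) with collection session as a term. No gene passed the test of diet by age in limma (0 of 13414, 454 at an unadjusted p under 0.05; 0% called), and the unadjusted p of the 9 genes ran from 0.052 to 0.772.

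**Figure D5:**
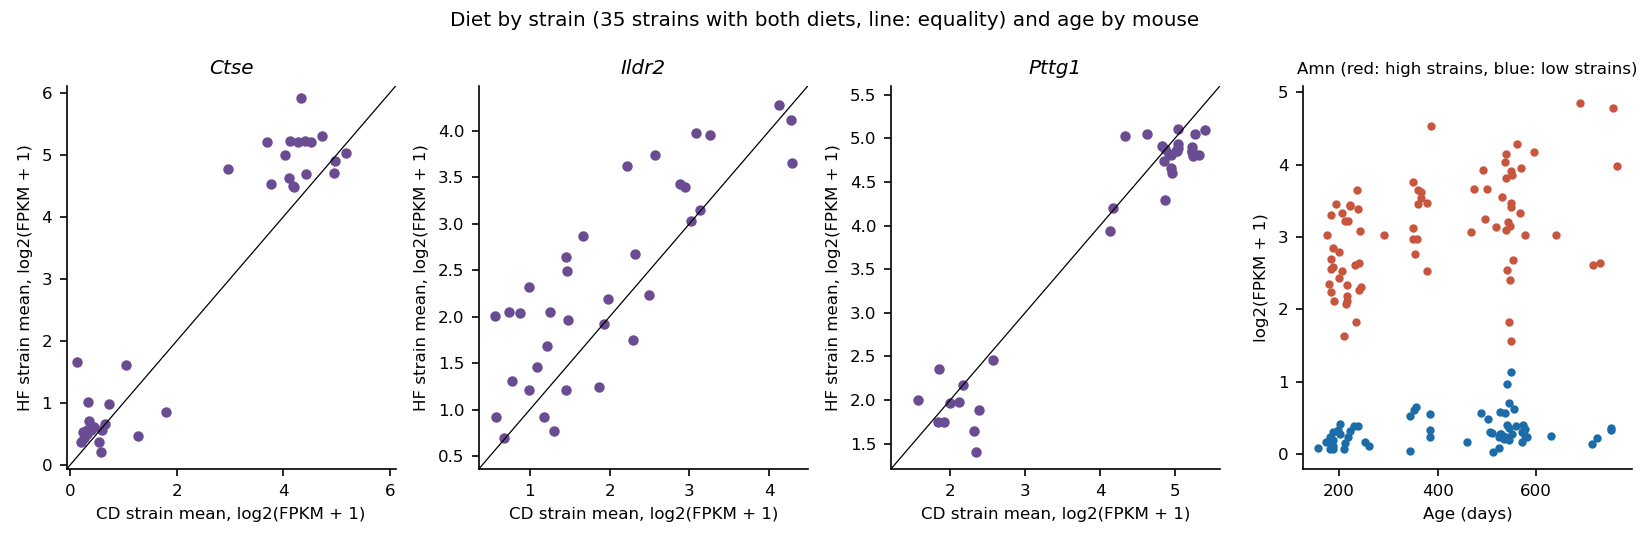
The first 3 panels give mean log2(FPKM + 1) on HF (vertical) against CD (horizontal) of each of the 35 strains with both diets for Ctse, Ildr2 and Pttg1, with a line of equality: 26, 26 and 8 strains lie above it. The last panel gives log2(FPKM + 1) of Amn in each of the 140 mice against age in days, red for strains on its high side and blue for its low side; the older mice of both sets have the higher means given above.

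Relatives and partners of the 9 genes were listed from general knowledge and tested for strain in the same fit; 59.8% of all genes passed that test. Of the TRIM genes 9 of 11 tested passed, led by Trim30d (share of variance 86.7%) and Trim5 (81.6%), then Trim34b (67.2%) and Trim12c (63.3%). Of the glycolysis genes 6 of 14 passed, led by Eno1 (71.7%), the glyceraldehyde phosphate dehydrogenase gene Gapdh (57.4%), the liver pyruvate kinase gene Pklr (46.3%) and the hexokinase gene Hk1 (44.3%). All 9 elongation factor genes passed, led by Tcea3 (62.3%) and Tcea1 (60.2%). Of the genes of sister chromatid separation 6 of 12 passed, led by Smc3, a cohesin subunit (51.2%), and Pttg1ip, which binds securin (46.7%). Apart from Eno1, Trim30d, Trim5 and Trim34b (r = -0.61), none of the named relatives had a strain pattern with an absolute correlation over 0.4 with its member.

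Of the cathepsins 10 of 12 passed, led by Ctsl (54.9%) and Ctsw (51.7%). Of the angulins and their partners 6 of 7 passed, led by the claudin genes Cldn2 (53.6%) and Cldn1 (50.8%) with occludin, Ocln, between them (51.1%). Of the cubam genes 3 of 4 passed, Dab2 (42.5%), Lrpap1 (41.8%) and Cd320 (39.6%), and of the apolipoprotein L genes 2 of 3, Apol9a (60.9%) and Apol9b (57.2%). These shares are read against the median of 40.6% over all genes.

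The test of strain depended on the settings in these lists. With collection session as a term, 6 of the 11 TRIM genes, 2 of the 9 elongation factor genes, 2 of the 14 glycolysis genes, 2 of the 12 cathepsins, 1 of the 12 mitotic genes, 3 of the 7 angulin genes, 1 of the 4 cubam genes and 2 of the 3 apolipoprotein L genes passed, where 2742 of all genes did in place of 8020. With 1 library kept of each group of nearly alike libraries, 4709 of all genes passed. Without the libraries that stood apart, 8337 of 13204 genes passed. All 11 TRIM genes, 6 of the 9 elongation factor genes, 10 of the 14 glycolysis genes and 9 of 11 mitotic genes then passed. So did 2 of the 4 cubam genes, 10 of the 12 cathepsins, all 7 angulin genes and all 3 apolipoprotein L genes.

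For diet and age the same lists gave the following. Of the glycolysis genes 4 rose on HF and none fell, Eno1, Pfkl and Pklr among them, where 4.64% of all genes rose and 5.49% fell. Eno1 rose by 0.23 (adjusted p = 0.00131) and Pklr by 0.57 (adjusted p = 0.000257) on the log2 scale. With collection session as a term the count was 3, without Pfkl. Eno1 and Pklr also passed without the libraries that stood apart. Among the TRIM genes Trim30d (0.21, adjusted p = 0.00661) and Trim34a (0.16, adjusted p = 0.0309) rose on HF, but Trim34a did not pass with collection session as a term. In the angulin list Cldn2 rose on HF (0.29, adjusted p = 0.000648) and Ocln fell (-0.17, adjusted p = 0.0224). None of the 12 mitotic genes changed with diet.

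With age, 8 of 12 cathepsins rose and none fell, where 14.2% of all genes rose; Ctse itself was not on the list. Ctss, cathepsin S, had a slope of 0.70 per year (adjusted p = 0.00103) and Ctsd, cathepsin D, 0.24 (adjusted p = 0.00173). The summed leukocyte markers were also higher in the older mice, as given above, and their part in these slopes was not tested. Without the libraries that stood apart 4 cathepsins rose, Ctsw, Ctss, Ctsd and Ctsz, and with collection session as a term 2, Ctss and Ctsd. Of the 12 mitotic genes 4 rose with age, Cdc20, Cdk1, Ccnb1 and Mad2l1, but 1 without the libraries that stood apart, Cdc20, and 0 with collection session as a term. None of the 4 cubam genes changed with age.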

How the data were processed

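The authors' deposited values are FPKM per transcript, and a second deposited table holds log2(FPKM + 1), which matched within 0.00050. STAR 2.6.0c and GRCm38 (mm10) stand in the submitters' processing notes; the counting step and use of strand are not given in the sources used here. For 7 of the 9 genes, all FPKM values came to whole reads (within 0.02) with GENCODE M21 lengths. For the other 2, Eno1b and Amn, 8.57% and 6.43% of the values above 0 did, and the reason was not tested. Of 150 columns, 7 exact repeats and 3 further columns with Ddx3y above 5 FPKM were left out, 2 of them labelled male and 1 female. Each gene was represented by its row with the highest mean FPKM. The 13414 genes with a mean of at least 0.5 FPKM were fitted as log2(FPKM + 1) with limma 3.58.1 (trend and robust variances, R 4.3.3; strain, diet and age as terms; 98 residual degrees of freedom), and Benjamini-Hochberg adjustment ran over the whole table. Fits were tested on simulated data. Strain by diet used moderated F-tests with 34 and 60 degrees of freedom.

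All 9 genes are named, with the 3 genes most alike in BXD strain means (provisional Gm and Rik symbols were passed over) and up to 4 relatives per list. Some of these genes and 1 list are not reported here. The members and lists were chosen with earlier results of these data known. A value per mouse covers 1 library; labels show separate animals. Alternatives were a pseudocount of 0.1, no filter or 5 FPKM, rescaling by median ratios to a common reference, the second table, males included, other transcript rows and collection session, which was read from the case identifier. Flow cell, 1 library of each close pair (median chi-square under 2), the libraries that stood apart (over 5 median absolute deviations) and the repeated libraries were added after seeing the data. Transcripts were aligned with Biopython 1.88.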

Additional observations from a re-analysis of the deposited data

Results flagged for a closer look

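Within the 22 strains that had 4 to 6 mice, the highest or lowest mouse lay far from its strain mates in 13 of 198 combinations of gene and strain; chance flags about 1 in 20. Ctse accounted for 4. BXD100 replicate 1 had 6.103 FPKM where the other 4 mice had 0.215 to 0.566, and BXD62 replicate 1, a library that stood apart, had 2.287 FPKM against 0.237 to 0.28. BXD29 replicate 1 had 5.737 FPKM against 30.8 to 36.9, and BXD68 replicate 4 had 66.9 FPKM against 19.4 to 20.8. The exocrine pancreas markers of BXD68 replicate 4 summed to 2982 FPKM, and their part in its Ctse level was not tested. For Arhgef10, BXD29 replicate 1 had 1.514 FPKM (others 2.19 to 2.54), BXD39 replicate 2 had 2.614 FPKM (2.11 to 2.18) and BXD63 replicate 5 had 0.5665 FPKM (0.26 to 0.352). For Tceanc2, BXD65 replicate 3 had 3.257 FPKM (0.604 to 0.832) and BXD70 replicate 2 had 2.07 FPKM (0.643 to 0.69). For Amn, BXD40 replicate 4 had 4.078 FPKM (6.82 to 7.18) and BXD65 replicate 2 had 0.9587 FPKM (0.247 to 0.32). Pttg1 was at 3.664 FPKM in BXD73 replicate 2 (2.93 to 3.02), and Trim12a at 0.07309 FPKM in BXD68 replicate 4 (0.209 to 0.234). Of these 13 values, 1 came from a library that stood apart, and BXD29 replicate 1 and BXD68 replicate 4 appear in more than 1 gene.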

How the results depend on the processing

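The 7 split genes remained split, by a distance over 0.5, with CD or HF mice only, at the parents' midpoint, after rescaling and without the libraries that stood apart, and 6 of them by over 1. Leaving out each of 123 mice in turn gave 7 to 8 split genes and moved no strain to another side in the 7, but up to 12 strains in Apol7d. With a pseudocount of 0.1 there were 8, Apol7d being the added gene. The median F1 position ran from 0.467 to 0.599 when each of 16 parent or F1 mice was left out. The count of genes called for age was 3175 of 13414 tested, and 1830 of 7116 at a mean of at least 5 FPKM. It was 1071 of 13414 with collection session and 1374 of 13204 without the libraries that stood apart. Of the 1830 called at 5 FPKM, 707 were higher and 1123 lower; after rescaling the split was 1780 and 1622, against 1907 and 1268. For strain the count was 8020 of 13414, and 4599 of 7116 at 5 FPKM. With collection session it was 2742 of 13414, and with 1 library of each close pair 4709 of 13416. For strain by diet the count was 1 of 13414, and 0 with a pseudocount of 0.1. It was 379 of 22184 with no filter, 38 of 7116 at 5 FPKM and 11 after rescaling. With collection session it was 0, with flow cell 2 and with 1 library of each close pair 2. Without the libraries that stood apart it was 18, and without the repeated libraries 46. The causes were not tested, apart from fewer genes tested at 5 FPKM. At a mean of at least 5 FPKM, Amn, Trim12a, Tceanc2 and Arhgef10 were not tested. Low levels, as of Trim12a, rest on few reads. No paired analysis was possible because the replicate numbers follow accession order and pair no mice; strain, and in 1 setting collection session, were terms of the fit.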
